A study of Homo sapiens with 20 samples.

Results

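The response of RPMI8226 cells to the indirubin derivative I3MO (indirubin-3'-monoxime) was described over every gene that these cells expressed at a measurable level. A gene was included when its FPKM, a count of fragments scaled to gene length and library size, was 1 or more in at least 2 of the 4 RPMI8226 libraries. By this rule 8813 of the 15687 genes tested in the whole series, out of 60483 listed, were included. Of these, 7327 reached 1 FPKM in all 4 libraries and 962 in exactly 2, while 835 tested genes that reached it in exactly 1 library stayed just outside. The rule takes no account of treatment, but 482 of the genes passed it only through the DMSO libraries and 242 only through the I3MO libraries, so a gene of that kind had to be lower or higher in 1 group.

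RNA sequencing was carried out in 5 human multiple myeloma cell models, each given DMSO or I3MO, with 2 libraries in each of 10 groups. The RPMI8226 controls were wild-type RPMI8226 cells given DMSO, the solvent, and the treated group was wild-type RPMI8226 cells given 10 µM I3MO. ARP1 and U266, the 2 wild-type lines used for comparison, also received DMSO or 10 µM I3MO, whereas ANBL6 and its bortezomib-resistant derivative ANBL6BR received 5 µM. The labels state neither the length of treatment nor whether replicates were separate cultures, so each p-value reflects how far these samples scatter, and that scatter may be technical. Each group is 1 established cell line, so its findings are those of that line.

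I3MO belongs to the indirubins, bis-indole compounds that inhibit several protein kinases, among them cyclin-dependent kinases and glycogen synthase kinase 3, and that also bind the aryl hydrocarbon receptor. RPMI8226 is a plasma cell line from a patient with myeloma, with a translocation that joins the MAF gene to an immunoglobulin locus. Plasma cells make and export antibody in bulk, so they depend on the chaperones and transport vesicles of the endoplasmic reticulum (ER). When unfolded protein builds up in the ER, the unfolded protein response raises those chaperones. When amino acids run short or eIF2α is phosphorylated for another reason, the transcription factor ATF4 raises genes for amino acid synthesis, uptake and tRNA charging.

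In units of 1e6 fragments, the 4 libraries held 15.3 to 20.3 on protein-coding genes, which is the divisor of the FPKM. A 0 in a library leaves room for 3 fragments, counting error alone considered. Over the genes included, log2 values of the DMSO pair correlated at r = 0.982, those of the I3MO pair at 0.989, and those of a DMSO with an I3MO library at 0.954 to 0.957. Neither pair agreed within sampling noise, the ratio of chi-square to degrees of freedom being 12.7 and 6.15. The gene length behind FPKM adds up the exons of all transcripts, so genes with many transcripts are understated and levels were compared only within a gene. Of 10 plasma cell markers 8 were expressed, with a summed level of 568.5 and 575.7 FPKM in DMSO and 418.1 and 410.2 in I3MO. XBP1, a defining plasma cell factor, was listed at 0 in all 4 libraries, as in every library of the series. The reason was not found, so the 0 does not show that the cells lacked it. All 10 T and NK cell markers were below 1 FPKM, with CD3D at 0. The 8 erythroid and 10 stromal markers were all below 1 FPKM. Of 9 myeloid markers S100A9 alone was expressed, and the list summed to 54.8 and 52.3 FPKM in DMSO and 32.9 and 33.1 in I3MO. Of 6 epithelial markers EPCAM and KRT18 were expressed, with list sums between 22.9 and 25.5 FPKM, and the 8 B cell markers summed to 3.37 to 5.24. The part of these markers in the results was not tested.

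I3MO shifted the level of 2071 of the 8813 genes, 910 upward and 1161 downward, at an adjusted p under 0.05 in limma, which is 23.5% of the genes in all, 10.3% higher and 13.2% lower. Over all 15687 tested genes the share was 14.8%, with 6.19% higher and 8.62% lower. Of the calls among the 8813 genes 43.9% were higher, and 50.1% with median-ratio scaling between libraries, so the excess of falls depended on the scaling. The changes were mostly small: 83 genes rose and 169 fell at least 2-fold on the log2(FPKM + 1) scale, on which every log2 change here is given. The median change over the 8813 genes was -0.02, beside -0.01 over all tested genes. With 2 libraries a group the number of calls depended on each of them. It was 1287 without the first DMSO library, 1241 without the second, 1058 without the first I3MO library and 1242 without the second. Of the 2071 calls, 384 were in genes that passed the rule through 1 group only.

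**Figure D1:**
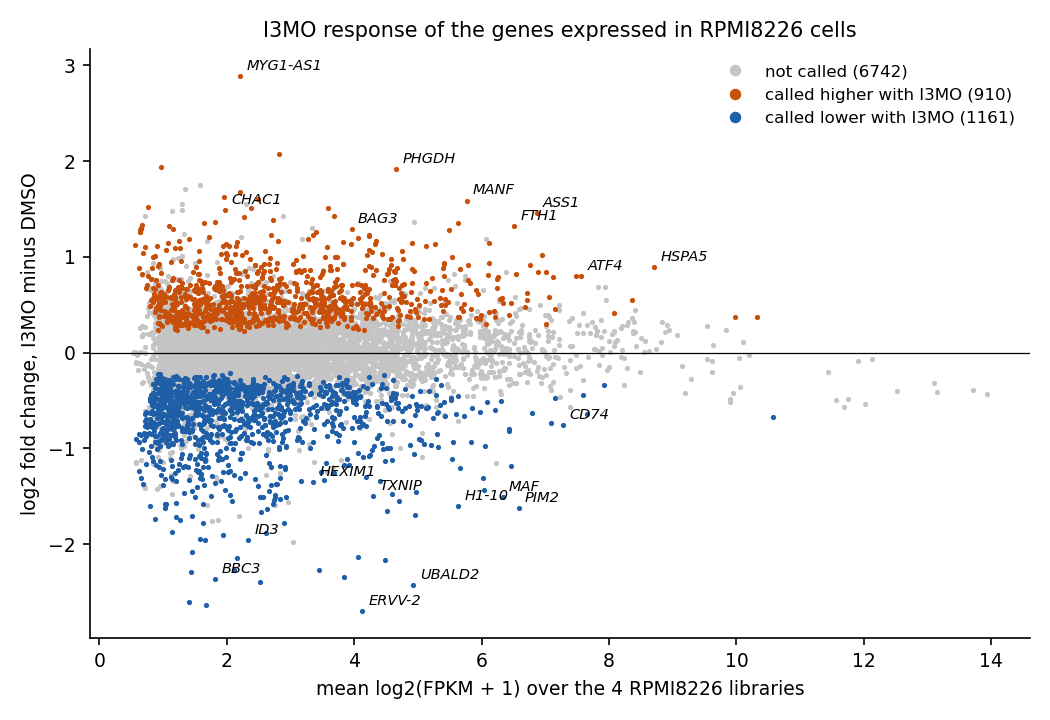
Log2 change in RPMI8226 cells (I3MO minus DMSO, vertical axis) against the mean level over the 4 libraries (log2(FPKM + 1), horizontal axis) for the 8813 genes, 1 point a gene, with the 910 called higher and the 1161 called lower in colour. Called genes lie on both sides of 0, and most lie within 1 log2 unit of it.

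The 12 largest rises, among called genes with a symbol and a mean of at least 5 FPKM whose groups do not overlap, held an antisense RNA, a pseudogene, a serine synthesis enzyme and 3 ER proteins. MYG1-AS1, an antisense RNA at chr12:53298655-53300314, was at 0.811 and 0.589 FPKM in the DMSO libraries and at 12.6 and 10.6 in the I3MO libraries. These levels rest on 8 and 6 fragments in DMSO against 126 and 139 in I3MO, a log2 change of 2.89 ± 0.31 (SE; limma adjusted p = 7.25e-05). The gene passed the FPKM rule only through I3MO, so its being higher was partly set by the rule. Its partner MYG1, named after its values were seen, was at 9.26 and 8.73 FPKM in DMSO and 14.07 and 13.95 in I3MO, and as the counting is not stated to use strand, reads of the 2 genes cannot be told apart. ISCA1P4, a processed pseudogene at chr15:40948736-40948869, was at 2.46 and 2.38 FPKM in DMSO and 13.6 and 13.3 in I3MO, from 5, 5, 28 and 36 fragments. Its I3MO values lay well above both controls (log2 change 2.08 ± 0.31, adjusted p = 0.000749), although reads of a pseudogene can come from near copies.

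PHGDH, which catalyses the first step of serine synthesis from glucose (chr1:119648411-119744226), stood at 12.5 and 11.5 FPKM with DMSO and 48.0 and 48.0 with I3MO. This was the largest rise among the protein-coding genes named, 1.92 ± 0.14 (adjusted p = 3.42e-06). ASS1, which makes argininosuccinate in the synthesis of arginine (chr9:130444929-130501274), stood at 69.0 and 69.9 FPKM with DMSO and at 192.2 and 192.9 with I3MO. The pairs were tight and far apart (1.46 ± 0.12, adjusted p = 1.02e-05). KRCC1 and HID1 rose by similar amounts. KRCC1 (chr2:88027205-88055729) moved from 2.51 and 1.96 FPKM to 9.05 and 8.50, a change of 1.60 ± 0.20 (adjusted p = 0.000198). HID1, a protein of the trans-Golgi network needed for secretory granules (chr17:74950743-74973166), moved from 6.07 and 6.19 FPKM to 18.8 and 19.9, a change of 1.51 ± 0.17 (adjusted p = 9.14e-05).

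Among the same 12, MANF, CRELD2 and DNAJB9 are ER proteins of the unfolded protein response and are given with the ER genes. CHPF, a chondroitin polymerizing factor of the Golgi (chr2:219538947-219543787), was at 30.9 and 28.6 FPKM in DMSO and 78.5 and 77.2 in I3MO. Both treated libraries exceeded both controls (1.36 ± 0.24, adjusted p = 0.00252). FTH1, the heavy chain of ferritin, which stores iron (chr11:61959718-61967660), was at 48.7 and 66.2 FPKM in DMSO and at 148.9 and 138.8 in I3MO. The controls differed more from each other than the treated pair did, but the groups stayed apart (1.32 ± 0.22, adjusted p = 0.00162). BAG3, a co-chaperone of HSP70 (chr10:119651370-119677819), was at 9.03 and 8.88 FPKM in DMSO and 23.2 and 23.5 in I3MO, a change of 1.29 ± 0.25 (adjusted p = 0.00404).

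The 12 largest falls were chosen by the same rule, so their groups do not overlap. They held a pair of neighbouring endogenous retrovirus genes, regulators of signalling, and genes typical of phagocytes. ERVV-2 (chr19:53044738-53051076) stood at 41.7 and 45.1 FPKM with DMSO and at 6.04 and 5.63 with I3MO, a change of -2.70 ± 0.10 (adjusted p = 5.07e-08). Its neighbour ERVV-1 (chr19:53013921-53016122), stood at 47.6 and 44.7 FPKM with DMSO and at 8.30 and 10.9 with I3MO. The 2 genes were lower side by side, with a change of -2.17 ± 0.14 for ERVV-1 (adjusted p = 1.04e-06). UBALD2 (chr17:76265202-76271299) moved from 71.0 and 68.3 FPKM to 11.1 and 13.3, a change of -2.43 ± 0.13 (adjusted p = 5.57e-07). METTL7A, a methyltransferase of the ER and lipid droplets (chr12:50923472-50932517), moved from 31.6 and 36.4 FPKM to 7.19 and 6.70 (-2.14 ± 0.26, adjusted p = 0.000147). In all 4 genes the I3MO libraries lay far below the DMSO libraries. ERVV-1 and ERVV-2 are related in sequence, so reads can be split between them.

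ID3, an inhibitor of basic helix-loop-helix transcription factors (chr1:23557918-23559794), was at 9.01 and 8.93 FPKM in DMSO and at 1.40 and 1.75 in I3MO (-1.96 ± 0.23, adjusted p = 0.000131). CYBB, the catalytic subunit of the phagocyte NADPH oxidase (chrX:37780011-37813461), was at 11.2 and 10.4 FPKM in DMSO and at 1.86 and 2.54 in I3MO (-1.89 ± 0.12, adjusted p = 1.04e-06). CXCL10, an interferon-induced chemokine (chr4:76021117-76023497), was at 50.1 and 60.2 FPKM in DMSO and at 15.8 and 16.7 in I3MO (-1.70 ± 0.18, adjusted p = 5.26e-05). None of these 3 genes had an I3MO library near its DMSO libraries. PIM2, a serine/threonine kinase that promotes survival of myeloma cells (chrX:48913182-48919024), was at 164.0 and 170.7 FPKM in DMSO and at 52.8 and 54.3 in I3MO. Each pair of PIM2 values was tight, and the change was -1.63 ± 0.11 (adjusted p = 2.15e-06).

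KLK1, a tissue kallikrein (chr19:50819148-50823787), moved from 8.40 and 10.4 FPKM to 2.31 and 2.23 (-1.66 ± 0.10, adjusted p = 7.57e-07). The fall of KLK1 kept its call whichever of the 4 libraries was left out, unlike those of TNFSF9 and PLAC8. TNFSF9, the ligand of the T cell receptor 4-1BB (chr19:6530999-6535928), moved from 13.73 and 12.04 FPKM to 2.76 and 3.32 (-1.78 ± 0.37, adjusted p = 0.0063), with an adjusted p of 0.0563 without the first I3MO library. PLAC8 (chr4:83090048-83137075) moved from 9.05 and 10.9 FPKM to 2.67 and 2.39 (-1.63 ± 0.36, adjusted p = 0.00948). Its adjusted p was 0.0692 without the second DMSO library, 0.0516 without the first I3MO library and 0.062 without the second.

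**Figure D2:**
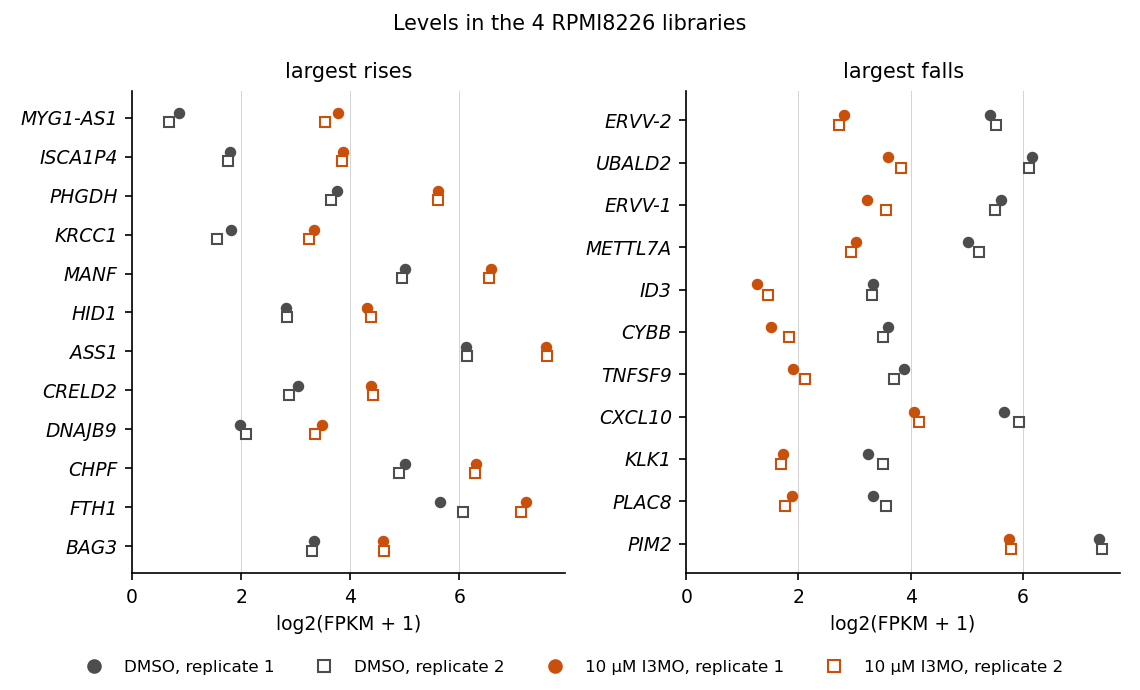
Level on the log2(FPKM + 1) scale (horizontal axis) in each of the 4 RPMI8226 libraries, 1 symbol a library, for the 12 largest rises (left) and 11 of the 12 largest falls (right) among the named genes. The genes were chosen to have separate groups, so the 2 libraries with 10 µM I3MO (orange) lie apart from the 2 with DMSO (grey). The log2 change is 2.89 for MYG1-AS1 and -2.70 for ERVV-2.

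Targets of ATF4 and its partner CHOP, the amino acid and stress genes of the integrated stress response, were higher with I3MO. Of 28 expressed genes on that list 18 rose and 10 did not pass, and the median log2 change was 0.60, beside -0.01 over all tested genes. Promoters of ASNS and CHAC1 are shown because each holds the letters TGATGNAA, the core of an ATF4 site, in the 250 bases before the RefSeq transcription start. They are written 5′ to 3′ along the gene's strand, from GRCh38.p14, with the match in capitals in whichever orientation it occurs. ASNS lies on the minus strand with its window at chr7:97872409-97872658, and CHAC1 on the plus strand at chr15:40953221-40953470, where the match is on the opposite strand.
ASNS: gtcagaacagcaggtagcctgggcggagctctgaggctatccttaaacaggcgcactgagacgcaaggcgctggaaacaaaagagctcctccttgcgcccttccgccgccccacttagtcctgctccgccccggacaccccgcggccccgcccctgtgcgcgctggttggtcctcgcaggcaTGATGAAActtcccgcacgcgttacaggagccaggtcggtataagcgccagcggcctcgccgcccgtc
CHAC1: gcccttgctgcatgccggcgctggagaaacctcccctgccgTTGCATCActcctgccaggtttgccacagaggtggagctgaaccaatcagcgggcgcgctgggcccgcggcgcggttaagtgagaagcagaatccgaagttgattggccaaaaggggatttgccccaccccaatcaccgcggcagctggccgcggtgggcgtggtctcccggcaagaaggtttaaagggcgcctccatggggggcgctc

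ASNS, which makes asparagine, and CHAC1, which degrades glutathione, were picked for display after their values were seen. ASNS was at 8.12 and 8.91 FPKM in DMSO and 20.98 and 19.56 in I3MO (1.16 ± 0.13, adjusted p = 8.75e-05). CHAC1 was at 1.43 and 1.26 FPKM in DMSO and 5.52 and 5.59 in I3MO (1.49 ± 0.29, adjusted p = 0.00429). In both genes the treated libraries were clear of the controls. Of 22 list members with a RefSeq promoter 4 held TGATGNAA on either strand (18.2%), against 1.25% of 6311 expressed genes with a promoter and 3.18% of all 27195 RefSeq promoters of this length. Among promoters of genes called higher the share was 1.71%, and among those called lower 1.1%.

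ATF4 itself, the transcription factor at the head of the list, was at 143.1 and 142.1 FPKM in DMSO and 257.5 and 240.5 in I3MO. Its messenger rose by 0.80 ± 0.10 (adjusted p = 0.000172), with no overlap. After PHGDH, the smallest p in the list belonged to SHMT2, CBS and SLC3A2. SHMT2, the mitochondrial enzyme that turns serine into glycine, moved from 14.2 and 14.2 FPKM to 30.9 and 29.4 (1.03 ± 0.10, adjusted p = 2.19e-05). CBS, the first enzyme of transsulfuration, moved from 1.39 and 1.31 FPKM to 2.60 and 2.65 (0.63 ± 0.06, adjusted p = 3.28e-05). SLC3A2, the heavy chain of amino acid transporters of the plasma membrane, moved from 28.2 and 27.7 FPKM to 70.8 and 67.6 (1.28 ± 0.14, adjusted p = 6.71e-05). All 3 showed treated libraries at about the same height and clear of the controls. DDIT3, the gene of CHOP, stayed below the level of the rule, at 0.435 and 0.412 FPKM in DMSO and 0.730 and 1.30 in I3MO (0.49 ± 0.23, adjusted p = 0.209).

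Enzymes that charge tRNA and carriers of amino acids were called in part. Of 20 cytosolic aminoacyl-tRNA synthetases 8 rose and 12 did not pass, with a median change of 0.28. The number was 5 when any 1 of the 4 libraries was left out. SARS1, for serine, moved from 15.5 and 17.4 FPKM to 31.6 and 32.1 (0.92 ± 0.10, adjusted p = 8.52e-05). AARS1, for alanine, moved from 83.1 and 84.9 FPKM to 126.8 and 132.5 (0.62 ± 0.09, adjusted p = 0.000516). WARS1, for tryptophan, moved from 2.21 and 2.80 FPKM to 4.98 and 4.86 (0.76 ± 0.12, adjusted p = 0.00103), and again no library of the 2 groups overlapped.

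Of 14 amino acid transporters 6 rose and 3 fell, with a median of 0.23. Without the first I3MO library 3 rose, and 1 fell when any 1 of the 4 libraries was left out. SLC6A9, a glycine transporter, was at 1.96 and 2.02 FPKM in DMSO and at 5.64 and 5.73 in I3MO (1.16 ± 0.11, adjusted p = 2.09e-05). SLC1A5, a glutamine carrier, was at 40.9 and 42.2 FPKM in DMSO and at 71.4 and 70.5 in I3MO (0.76 ± 0.11, adjusted p = 0.000625). Opposite to these, SLC43A2, a carrier of large neutral amino acids, was at 1.75 and 1.93 FPKM in DMSO and at 0.717 and 0.689 in I3MO (-0.74 ± 0.07, adjusted p = 4.08e-05). It was expressed above the minimum of the rule in the DMSO libraries only. Glycine and glutamine carriers thus stood higher and SLC43A2 lower in the same treated libraries.

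Rises also outnumbered falls among the chaperones of the ER and the machinery that carries protein from the ER to the Golgi. Of 29 ER chaperones and folding enzymes 13 rose and 16 did not pass, with a median change of 0.55. Promoters of CRELD2 and HSPA5 are shown because each holds the ER stress response element, CCAAT and CCACG with 9 bases of any kind between them, in the same 250-base window (RefSeq, GRCh38.p14, match in capitals). The CCAAT box lies inside this element. CRELD2 is on the plus strand at chr22:49918384-49918633, with the match on the opposite strand, and HSPA5 on the minus strand at chr9:125241344-125241593.
CRELD2: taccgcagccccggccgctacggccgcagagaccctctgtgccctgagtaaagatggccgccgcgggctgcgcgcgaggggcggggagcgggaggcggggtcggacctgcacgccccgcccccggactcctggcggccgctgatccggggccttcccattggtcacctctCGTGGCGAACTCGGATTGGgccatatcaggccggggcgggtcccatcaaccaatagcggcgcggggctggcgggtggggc
HSPA5: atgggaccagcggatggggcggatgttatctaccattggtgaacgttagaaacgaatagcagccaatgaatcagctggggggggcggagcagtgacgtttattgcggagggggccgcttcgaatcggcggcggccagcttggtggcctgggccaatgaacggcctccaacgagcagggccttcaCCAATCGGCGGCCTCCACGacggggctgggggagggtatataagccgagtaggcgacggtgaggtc

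The element was found on either strand in 5 of the 26 listed ER chaperone genes with a promoter (19.2%). It was found in 5 of 702 promoters of genes called higher (0.712%), in 0.158% of those of expressed genes and in 0.0809% of all RefSeq promoters. HSPA5, the ER chaperone BiP, named here after its values were seen, was at 305.1 and 307.6 FPKM in DMSO and at 564.1 and 575.6 in I3MO (0.89 ± 0.15, adjusted p = 0.00162). CRELD2, an ER protein with disulfide isomerase activity (chr22:49918167-49927540), was at 7.27 and 6.37 FPKM in DMSO and at 19.7 and 20.3 in I3MO (1.43 ± 0.20, adjusted p = 0.000534). In both genes the treated libraries stood far above the controls.

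MANF, a secreted and ER-resident protective factor (chr3:51385047-51389397), was at 30.9 and 29.8 FPKM in DMSO and 94.9 and 91.7 in I3MO (1.59 ± 0.27, adjusted p = 0.00163). DNAJB9, an ER co-chaperone of BiP (chr7:108569568-108574850), was at 2.95 and 3.28 FPKM in DMSO and 10.2 and 9.25 in I3MO (1.39 ± 0.20, adjusted p = 0.000578). Both treated values of each gene were far above its controls. HYOU1, another large ER chaperone, moved from 18.1 and 17.3 FPKM to 36.2 and 40.1 (1.07 ± 0.13, adjusted p = 0.000148). SYVN1, the ubiquitin ligase that removes misfolded ER protein, moved from 8.68 and 9.95 FPKM to 17.9 and 19.3 (0.93 ± 0.12, adjusted p = 0.00027).

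Of 29 genes of ER to Golgi traffic 10 rose and 19 did not pass, with a median of 0.44. MCFD2, a partner of the cargo receptor LMAN1, was at 3.33 and 3.36 FPKM in DMSO and 7.17 and 7.37 in I3MO (0.93 ± 0.11, adjusted p = 0.000165). SEC23B, of the inner COPII coat, was at 8.61 and 8.94 FPKM in DMSO and 16.8 and 17.1 in I3MO (0.88 ± 0.13, adjusted p = 0.000545). SEC24D, which selects COPII cargo, was at 1.91 and 1.91 FPKM in DMSO and 3.55 and 3.92 in I3MO (0.70 ± 0.10, adjusted p = 0.000638). In each of these coat genes the 2 groups were separate and the replicates close. The letters TGACGTGG, a binding element of ATF6 and XBP1, were on either strand in 5 of 26 promoters of the traffic list (19.2%), against 1.99% of those of genes called higher, 0.808% of those of expressed genes and 0.669% of all RefSeq promoters. Such a match is a description of the sequence only.

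Outside the ER, genes of protein quality control were called in part. Of 15 cytosolic and mitochondrial heat shock chaperones 3 rose and 1 fell, with a median of 0.22. Over all expressed genes 10.3% were called higher and 13.2% lower, and whether this list exceeds those shares was not tested. DNAJB1, an HSP40 co-chaperone, stood at 9.21 and 9.60 FPKM with DMSO and at 21.2 and 22.7 with I3MO (1.14 ± 0.23, adjusted p = 0.00581). HSPE1, the mitochondrial HSP10, stood at 7.61 and 9.45 FPKM with DMSO and at 15.6 and 12.7 with I3MO (0.67 ± 0.11, adjusted p = 0.00166). Both rose with BAG3. HSPB1, the small heat shock protein HSP27, fell from 164.1 and 167.9 FPKM to 117.6 and 121.0 (-0.47 ± 0.10, adjusted p = 0.00862), with an adjusted p of 0.0575 without the second DMSO library and 0.0676 without the first I3MO library. HSPA1A, the inducible HSP70, was listed at 0 in all 4 libraries, as in every library of the series, and the reason was not found.

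Among 32 proteasome subunits limma called 0, with a median change of 0.01. At an unadjusted p under 0.05 there were 3, all higher, and limma-voom on recovered fragments called 1. PSMB5, the subunit that bortezomib binds, was at 12.2 and 10.2 FPKM in DMSO and 16.1 and 16.4 in I3MO (0.51 ± 0.17, adjusted p = 0.0655). PSME1, of the 11S regulator, was at 26.9 and 31.1 FPKM in DMSO and 24.7 and 24.5 in I3MO (-0.23 ± 0.15, adjusted p = 0.404). NFE2L1, the transcription factor that drives proteasome genes when proteasomes fail, was at 7.37 and 6.89 FPKM in DMSO and 11.3 and 11.9 in I3MO (0.63 ± 0.10, adjusted p = 0.00124). The factor itself rose while its listed target subunits gave no call. USP7, a deubiquitinase of MDM2, gave values of 9.10 and 8.87 FPKM in DMSO and 7.15 and 8.27 in I3MO (-0.20 ± 0.09, adjusted p = 0.156).

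Of 22 targets of NRF2, the factor that answers oxidants, 3 rose and 19 did not pass, with a median of 0.18. This count is near the 10.3% of all expressed genes called higher, and whether it exceeds that share was not tested. NQO1, a quinone reductase, was at 9.16 and 9.13 FPKM in DMSO and 17.3 and 15.4 in I3MO (0.77 ± 0.10, adjusted p = 0.000227). PGD, of the pentose phosphate pathway, was at 61.4 and 66.0 FPKM in DMSO and 95.8 and 92.5 in I3MO (0.56 ± 0.09, adjusted p = 0.00177). Together with FTH1 these are the 3 that rose, each with separate groups. HMOX1, heme oxygenase, stood at 18.04 and 18.1 FPKM with DMSO and at 47.6 and 48.4 with I3MO, yet with the spread shared by all 20 libraries the change of 1.36 ± 0.65 did not pass (adjusted p = 0.212). NFE2L2, the gene of NRF2, was near the minimum of the rule, at 0.897 and 0.902 FPKM in DMSO and 1.08 and 0.870 in I3MO.

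**Figure D3:**
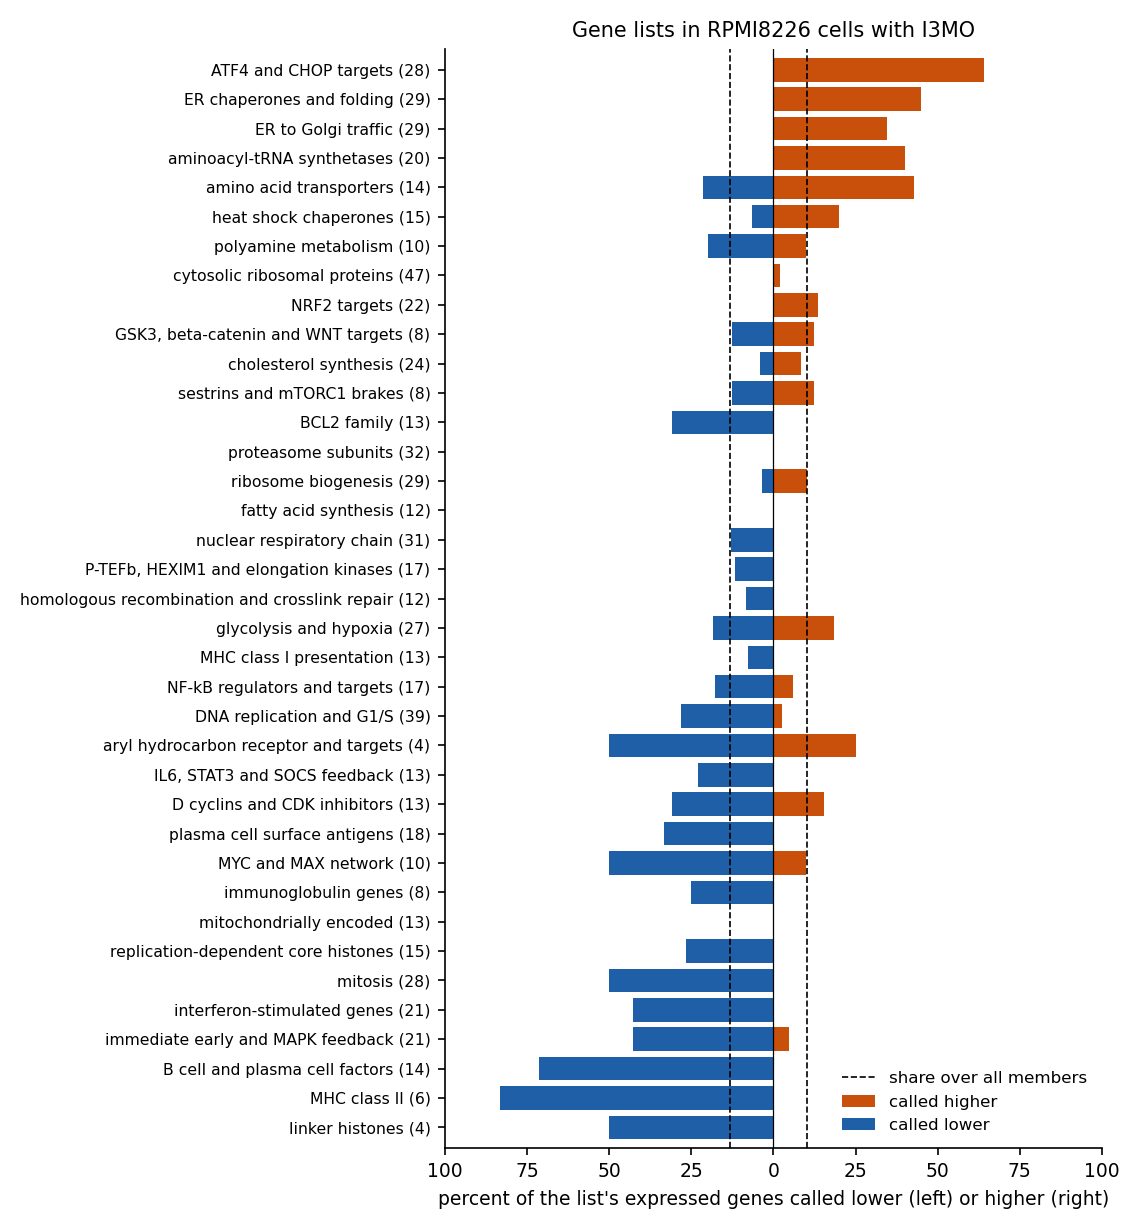
Percent of the expressed genes of each list called higher (bars to the right) and called lower (bars to the left) in RPMI8226 cells with I3MO, with the number of expressed genes in brackets and dashed lines at the shares over all 8813 genes, 10.3% and 13.2%. The lists are ordered by median change, from the ATF4 and CHOP targets at the top, with 18 of 28 higher, to MHC class II, with 5 of 6 lower, and the linker histones.

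Genes of antigen presentation by MHC class II fell. Of 6 expressed genes 5 fell, with a median of -0.80, and the same number fell whichever library was left out. CIITA, the master regulator of the class II genes, was at 1.13 and 1.38 FPKM in DMSO and 0.546 and 0.525 in I3MO (-0.55 ± 0.10, adjusted p = 0.00338), so it was above the minimum of the rule in DMSO only. HLA-DPA1 was at 9.14 and 8.84 FPKM in DMSO and 3.98 and 3.98 in I3MO (-1.005 ± 0.07, adjusted p = 2.57e-06). HLA-DRA was at 68.5 and 87.6 FPKM in DMSO and 42.0 and 38.4 in I3MO (-0.93 ± 0.15, adjusted p = 0.00109). Chains of both the DP and the DR molecule were thus lower, with separate groups.

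HLA-DMA, which loads peptide onto class II, was at 5.12 and 5.80 FPKM in DMSO and 2.72 and 2.47 in I3MO (-0.84 ± 0.09, adjusted p = 4.51e-05). CD74, the invariant chain, was at 192.5 and 209.1 FPKM in DMSO and 115.1 and 121.0 in I3MO (-0.76 ± 0.14, adjusted p = 0.00355). HLA-DRB1, which did not pass, had overlapping groups, with 4.56 and 2.70 FPKM in DMSO and 2.30 and 3.25 in I3MO. For class I, 1 of 13 genes fell: TAPBP, the peptide-loading factor tapasin, went from 13.9 and 12.4 FPKM to 6.02 and 6.83 (-0.93 ± 0.12, adjusted p = 0.000245).

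Interferon-stimulated genes were lower as well. Of 21 expressed genes 9 fell and 12 did not pass, with a median of -0.50, and 2 of the 9 had passed the rule only through DMSO. The number of falls was 5 without the first DMSO library or without the second I3MO library. Promoters of IFIT3 and IFIT1 are shown because each holds GAAA, any 2 bases and GAAA again, the core of the interferon-stimulated response element, 2 times on the strand opposite to the gene (250 bases before the RefSeq start, GRCh38.p14, matches in capitals). IFIT3 is on the plus strand at chr10:89327747-89327996 and IFIT1 on the plus strand at chr10:89392373-89392622.
IFIT3: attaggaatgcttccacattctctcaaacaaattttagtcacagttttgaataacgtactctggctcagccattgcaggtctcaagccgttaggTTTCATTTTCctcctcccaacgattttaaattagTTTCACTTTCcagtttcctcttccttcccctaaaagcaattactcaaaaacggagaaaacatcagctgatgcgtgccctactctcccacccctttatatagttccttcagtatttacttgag
IFIT1: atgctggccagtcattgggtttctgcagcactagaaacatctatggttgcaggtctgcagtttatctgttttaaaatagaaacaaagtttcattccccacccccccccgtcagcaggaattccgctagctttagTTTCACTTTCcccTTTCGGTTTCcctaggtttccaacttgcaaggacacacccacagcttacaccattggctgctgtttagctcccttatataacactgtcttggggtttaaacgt

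These letters were on either strand in 11 of 17 promoters of the interferon list (64.7%), in 3.06% of those of genes called lower, 0.855% of those called higher, 2.33% of those of expressed genes and 3.07% of all RefSeq promoters. IFIT3 and IFIT1, which bind or help to bind foreign RNA, were picked for display after their values were seen. IFIT3 was at 2.68 and 2.16 FPKM in DMSO and 0.809 and 0.707 in I3MO (-0.96 ± 0.22, adjusted p = 0.0106). IFIT1 was at 1.87 and 1.92 FPKM in DMSO and 1.13 and 0.789 in I3MO (-0.57 ± 0.14, adjusted p = 0.0152). Neither call held without the first DMSO library or without the second I3MO library, where the adjusted p was 0.0827 and 0.0699 for IFIT3 and 0.0667 and 0.138 for IFIT1. For IFIT3 it was 0.0547 without the first I3MO library, and for IFIT1 0.0807 without the second DMSO library.

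STAT2, a subunit of the factor that carries the interferon signal to DNA, moved from 3.26 and 3.21 FPKM to 1.59 and 1.56 (-0.72 ± 0.08, adjusted p = 9.87e-05). OAS2, an RNA-activated synthetase, moved from 5.39 and 6.11 FPKM to 2.18 and 2.34 (-1.05 ± 0.19, adjusted p = 0.00278). MX1, an antiviral GTPase, moved from 5.54 and 5.77 FPKM to 3.596 and 3.65 (-0.53 ± 0.07, adjusted p = 0.000206). With IFI16, a DNA sensor (2.62 and 2.51 FPKM in DMSO, 1.33 and 1.30 in I3MO, -0.62 ± 0.10, adjusted p = 0.000854), these genes had lower values in both treated libraries and kept their calls whichever library was left out.

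Genes of mitosis fell, and so did part of the genes of DNA replication. Of 28 expressed mitosis genes 14 fell and 14 did not pass, with a median of -0.50. The number was 9 without the first I3MO library, and 10, 10 and 11 without the first DMSO, second DMSO and second I3MO library. Promoters of CCNB2 and PRC1 are shown because each holds TTTGAA, the cell cycle homology region, close to the RefSeq start (250 bases before it, GRCh38.p14, match in capitals). CCNB2 is on the plus strand at chr15:59104896-59105145 and PRC1 on the minus strand at chr15:90994536-90994785.
CCNB2: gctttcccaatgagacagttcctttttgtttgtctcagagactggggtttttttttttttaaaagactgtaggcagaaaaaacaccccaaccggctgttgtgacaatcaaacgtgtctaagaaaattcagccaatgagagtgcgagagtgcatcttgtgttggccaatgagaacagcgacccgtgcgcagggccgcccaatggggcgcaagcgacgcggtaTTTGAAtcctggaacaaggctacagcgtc
PRC1: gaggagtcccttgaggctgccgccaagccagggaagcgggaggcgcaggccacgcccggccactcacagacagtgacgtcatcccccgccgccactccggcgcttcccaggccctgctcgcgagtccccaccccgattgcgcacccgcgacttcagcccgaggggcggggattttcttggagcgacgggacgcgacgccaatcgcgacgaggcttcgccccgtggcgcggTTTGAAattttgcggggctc

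TTTGAA was on either strand in 10 of 24 promoters of the mitosis list (41.7%), in 10.5% of those of genes called lower, 5.13% of those called higher, 7.43% of those of expressed genes and 13.6% of all RefSeq promoters. CCNB2, a B-type cyclin, was at 26.1 and 27.8 FPKM in DMSO and 13.8 and 14.4 in I3MO (-0.89 ± 0.11, adjusted p = 0.000171). PRC1, which bundles microtubules in the central spindle and was picked for display after its values were seen, was at 5.19 and 4.34 FPKM in DMSO and 3.16 and 3.28 in I3MO (-0.45 ± 0.09, adjusted p = 0.00504). Without the first DMSO library, the higher of the 2 controls for PRC1, its adjusted p was 0.0613.

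KIF20A, a kinesin of cytokinesis, was at 5.21 and 4.93 FPKM in DMSO and 1.70 and 1.67 in I3MO (-1.18 ± 0.11, adjusted p = 2.31e-05). PTTG1, securin, was at 25.5 and 27.4 FPKM in DMSO and 12.6 and 11.6 in I3MO (-1.07 ± 0.10, adjusted p = 3.21e-05). NUSAP1, a spindle protein, was at 3.02 and 3.20 FPKM in DMSO and 1.23 and 1.42 in I3MO (-0.82 ± 0.14, adjusted p = 0.00138). All 3 had treated libraries below the controls by more than the gap between replicates.

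Of 39 genes of DNA replication and the G1/S step 11 fell, 1 rose and 27 did not pass, with a median of -0.21. Without a single library the falls numbered 8, 5, 5 and 6, in the order first DMSO, second DMSO, first I3MO and second I3MO library. MCM5, of the replicative helicase, was at 37.6 and 38.1 FPKM in DMSO and 22.6 and 24.8 in I3MO (-0.66 ± 0.07, adjusted p = 9.14e-05). Its partner MCM2 was at 47.4 and 49.2 FPKM in DMSO and 30.0 and 32.3 in I3MO (-0.62 ± 0.08, adjusted p = 0.00017). E2F2, an activator of S-phase genes, was at 45.4 and 48.5 FPKM in DMSO and 28.4 and 29.3 in I3MO (-0.68 ± 0.09, adjusted p = 0.000366). The rise was in CCNE1, the cyclin that drives entry into S phase, from 1.36 and 1.45 FPKM to 2.63 and 3.08 (0.68 ± 0.10, adjusted p = 0.000814). Helicase genes and CCNE1 thus lay on opposite sides in the same libraries.

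Among 13 D cyclins, their kinases and CDK inhibitors 2 rose, CDK4 and CCND3, and 4 fell, and 1 fell without the second I3MO library. The other 3 leave-outs gave 2 falls. The rises numbered 0 without the second DMSO or the first I3MO library and 1 without either of the others. CDKN1C, an inhibitor of CDKs, was at 2.37 and 2.47 FPKM in DMSO and 0.435 and 0.351 in I3MO (-1.30 ± 0.08, adjusted p = 1.04e-06), and passed the rule through DMSO only. CDKN1A, the inhibitor p21, was at 16.6 and 14.8 FPKM in DMSO and 8.40 and 8.50 in I3MO (-0.82 ± 0.25, adjusted p = 0.0469). Its adjusted p rose to between 0.122 and 0.204 when 1 library was left out. CDK4 was at 14.9 and 14.7 FPKM in DMSO and 22.8 and 20.9 in I3MO (0.53 ± 0.13, adjusted p = 0.014), and CDKN2B was below 0.5 FPKM in all 4 libraries. For CDK4 the adjusted p was 0.0637, 0.0771 and 0.115 without the first DMSO, second DMSO and first I3MO library. Of 12 genes of homologous recombination and crosslink repair 1, EXO1, fell (-0.34 ± 0.11, adjusted p = 0.0466), and its adjusted p was 0.113 to 0.216 when 1 library was left out.

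Some histone genes fell, among them H1-10, a linker histone that does not depend on replication. H1-10 was at 92.7 and 78.9 FPKM in DMSO and 26.9 and 28.1 in I3MO (-1.60 ± 0.17, adjusted p = 5.83e-05). It is 1 of 4 expressed linker histones, whose median was -1.27. Of 15 replication-dependent core histones 4 fell, with a median of -0.44, and 1 fell without the second DMSO library, 2 without the second I3MO library and 3 without either of the others. H3C10 was at 3.28 and 2.05 FPKM in DMSO and 0.993 and 1.15 in I3MO (-0.80 ± 0.14, adjusted p = 0.00251). These genes share sequence, and their messengers lack the poly(A) tail, so how fully they were counted depends on a library preparation not given in the sources used here.

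Many of the transcription factors listed for B cells and plasma cells were called lower with I3MO. Of 14 expressed B cell and plasma cell transcription factors 10 fell and 4 did not pass, with a median of -0.71, and 2 of the 10 had passed the rule only through DMSO. The falls numbered 4 without the first I3MO library and 6 without either DMSO library. MAF, the transcription factor that the translocation of RPMI8226 activates, was at 144.4 and 125.9 FPKM in DMSO and 44.5 and 49.1 in I3MO. It fell by 1.51 on the log2 scale, with an SE of 0.13 (adjusted p = 1.31e-05). ID2, a relative of ID3, was at 6.82 and 6.29 FPKM in DMSO and 2.17 and 2.16 in I3MO (-1.25 ± 0.21, adjusted p = 0.00182). IKZF1, a lymphoid factor degraded by lenalidomide, was at 1.79 and 1.68 FPKM in DMSO and 0.778 and 0.853 in I3MO (-0.59 ± 0.10, adjusted p = 0.00178). Neither treated library of these genes reached a control. ID1, named after its values were seen, was at 10.3 and 10.4 FPKM in DMSO and 3.25 and 2.83 in I3MO (-1.49 ± 0.42, adjusted p = 0.032), a call lost without any 1 library (adjusted p = 0.119 to 0.147).

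IRF4, on which myeloma cells depend, was at 29.5 and 29.4 FPKM in DMSO and 15.8 and 18.9 in I3MO, but its change of -0.74 ± 0.33 did not pass (adjusted p = 0.173). PRDM1, the plasma cell regulator BLIMP1, was at 2.97 and 3.01 FPKM in DMSO and 1.30 and 1.57 in I3MO (-0.71 ± 0.20, adjusted p = 0.0326). POU2AF1, a B cell coactivator, was at 28.5 and 31.6 FPKM in DMSO and 14.2 and 14.7 in I3MO (-1.01 ± 0.28, adjusted p = 0.0318). These last 2 lost their calls when any 1 library was left out, with an adjusted p of 0.0871 to 0.19 for PRDM1 and 0.094 to 0.155 for POU2AF1. The pairs did not overlap in any of the 3 genes.

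Among 18 surface antigens of plasma cells 6 fell and 12 did not pass, with a median of -0.36, and 3 of the 6 had passed the rule only through DMSO. CD38, the target of daratumumab, was at 18.8 and 18.8 FPKM in DMSO and 7.10 and 7.41 in I3MO (-1.26 ± 0.27, adjusted p = 0.00749), with an adjusted p of 0.056 without the first I3MO library. CD59, which blocks complement at the cell surface, was at 6.17 and 6.33 FPKM in DMSO and 1.32 and 1.63 in I3MO (-1.55 ± 0.20, adjusted p = 0.000262). FCRL2, an Fc receptor-like protein, was at 1.02 and 1.05 FPKM in DMSO and 0.0842 and 0.0917 in I3MO (-0.90 ± 0.09, adjusted p = 4.81e-05). SDC1, the plasma cell antigen CD138, gave 71.0 and 63.4 FPKM in DMSO and 52.6 and 52.7 in I3MO, a change that did not pass (-0.34 ± 0.24, adjusted p = 0.421).

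Of 8 expressed immunoglobulin genes 2 fell, with a median of -0.42. IGHG4 was at 25.5 and 29.7 FPKM in DMSO and 10.2 and 10.99 in I3MO (-1.30 ± 0.07, adjusted p = 5.74e-07). IGHA2, which passed the rule only through DMSO, was at 1.53 and 1.66 FPKM in DMSO and 0.121 and 0.323 in I3MO (-1.09 ± 0.12, adjusted p = 7.21e-05). The constant genes of a class are near copies, so reads can be split between them, and the abundant light chain gene IGLC2 had overlapping groups, with 11270 and 8452 FPKM in DMSO and 7448 and 8213 in I3MO.

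Of 13 expressed BCL2 family genes 4 fell, all of them pro-apoptotic, and the median was 0.07. BBC3, the BH3-only protein PUMA, was at 8.31 and 5.89 FPKM in DMSO and 0.563 and 0.547 in I3MO (-2.37 ± 0.19, adjusted p = 6.4e-06). BMF, another BH3-only protein, was at 2.07 and 2.04 FPKM in DMSO and 0.232 and 0.280 in I3MO (-1.28 ± 0.08, adjusted p = 1.04e-06). BCL2L11, the protein BIM, was at 1.97 and 1.92 FPKM in DMSO and 0.746 and 0.860 in I3MO (-0.71 ± 0.13, adjusted p = 0.00242). All 3 passed the rule only through DMSO, so their being lower was partly set by the rule. BIK, the fourth, was at 31.0 and 30.0 FPKM in DMSO and 21.3 and 19.1 in I3MO (-0.57 ± 0.15, adjusted p = 0.0205), a call lost when any 1 library was left out (adjusted p = 0.0598 to 0.139). MCL1, the survival protein that myeloma cells rely on, was at 17.6 and 16.7 FPKM in DMSO and 16.1 and 18.5 in I3MO, with overlapping groups (0.01 ± 0.14, adjusted p = 1).

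Single genes of growth arrest and DNA repair fell too. BTG2, an antiproliferative factor, was at 31.6 and 34.0 FPKM in DMSO and 12.2 and 12.5 in I3MO (-1.34 ± 0.20, adjusted p = 0.000704). DDB2, of nucleotide excision repair, was at 4.72 and 4.03 FPKM in DMSO and 2.13 and 2.17 in I3MO (-0.77 ± 0.09, adjusted p = 0.000125). FDXR, a mitochondrial reductase, was at 1.76 and 1.58 FPKM in DMSO and 0.847 and 0.792 in I3MO (-0.55 ± 0.08, adjusted p = 0.000412). Together with BBC3 these genes had no treated library near a control. FDXR, like BBC3, passed the rule only through DMSO, so its being lower was partly set by the rule.

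**Figure D4:**
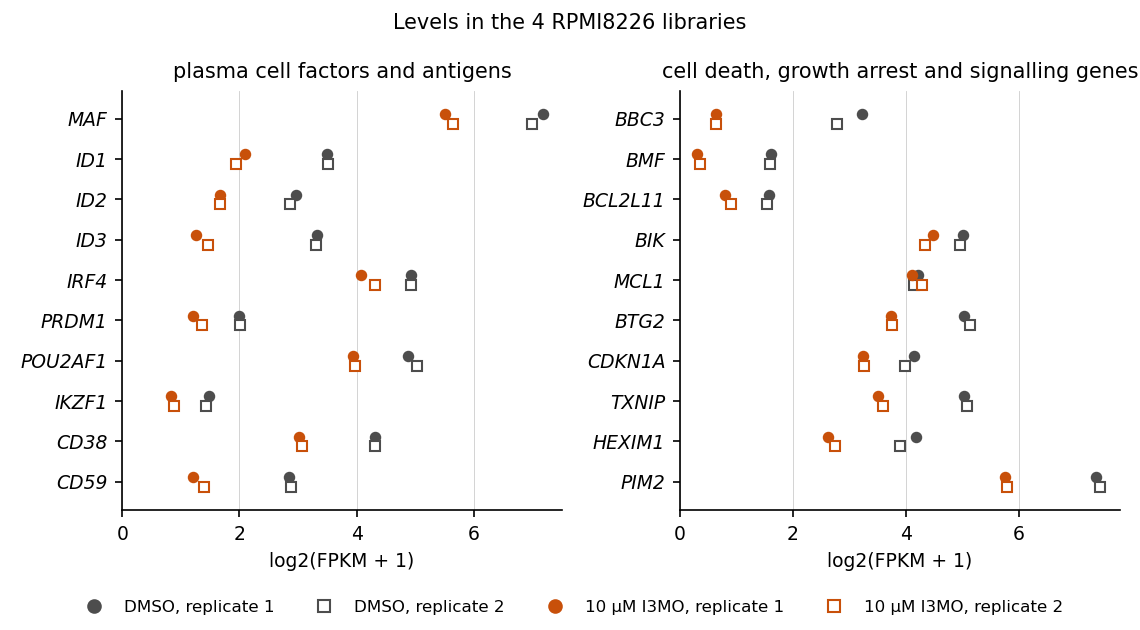
Level on the log2(FPKM + 1) scale (horizontal axis) in each of the 4 RPMI8226 libraries, 1 symbol a library, for plasma cell factors and antigens (left) and for cell death, growth arrest and signalling genes (right). The libraries with 10 µM I3MO (orange) lie below those with DMSO (grey) in 19 of the 20 genes, and in MCL1 they overlap. All of the genes shown but IRF4 and MCL1 were called lower, so this count follows from their choice. BBC3, BMF, BCL2L11 and IKZF1 passed the FPKM rule only through DMSO.

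The oncogene MYC and its partners gave calls in both directions. MYC was at 110.9 and 110.9 FPKM in DMSO and 46.5 and 52.4 in I3MO, and its change of -1.15 ± 0.37 narrowly missed the threshold (adjusted p = 0.0554). It passed with median-ratio scaling (0.0497), with the 4 RPMI8226 libraries alone (0.0045) and with limma-voom (0.0171). Of 10 genes of the MYC and MAX network 5 fell and 1 rose, with a median of -0.41, and 2 fell without either DMSO library or without the first I3MO library. TXNIP, which answers glucose, was at 31.5 and 32.7 FPKM in DMSO and 10.4 and 11.02 in I3MO (-1.50 ± 0.26, adjusted p = 0.00203). MXD4, an antagonist of MYC, was at 5.61 and 4.84 FPKM in DMSO and 2.58 and 2.87 in I3MO (-0.74 ± 0.10, adjusted p = 0.000464). MLX, the partner of glucose-sensing factors, rose from 3.38 and 3.65 FPKM to 5.34 and 5.12 (0.47 ± 0.09, adjusted p = 0.00312).

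Several genes that act in or respond to kinase signalling fell. Over all expressed genes 13.2% were called lower, and whether the lists below exceed that share was not tested. HEXIM1, the inhibitor of the elongation kinase P-TEFb, was at 17.04 and 13.9 FPKM in DMSO and 5.15 and 5.68 in I3MO (-1.35 ± 0.17, adjusted p = 0.000205). Of 17 genes of the P-TEFb and elongation list it was 1 of 2 that fell, the other being NELFCD of the pausing factor NELF (-0.50 ± 0.10, adjusted p = 0.00405). The median change of those 17 genes was -0.06. Of 13 genes of IL6, STAT3 and SOCS feedback 3 fell, with PIM2 in the lead. PIM1, a further PIM kinase, was at 26.4 and 26.0 FPKM in DMSO and 10.9 and 12.98 in I3MO (-1.07 ± 0.21, adjusted p = 0.00404). SOCS3, a STAT3 target and feedback inhibitor, had overlapping groups, with 1.93 and 0.963 FPKM in DMSO and 1.67 and 1.55 in I3MO (0.12 ± 0.30, adjusted p = 0.933). The third fall in that list, JAK1 (-0.40 ± 0.12, adjusted p = 0.0444), was lost without either DMSO library or without the first I3MO library (adjusted p = 0.176, 0.138 and 0.355).

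Of 21 immediate early and MAPK feedback genes 9 fell and 1 rose, with a median of -0.56. The falls numbered 6 without the first DMSO library and 4 without any 1 of the other 3. ETV4, an ETS factor induced by MAPK signalling, was at 6.67 and 6.06 FPKM in DMSO and 2.55 and 3.12 in I3MO (-0.94 ± 0.08, adjusted p = 1.64e-05). IER5, an immediate early gene, was at 56.7 and 53.6 FPKM in DMSO and 27.8 and 27.0 in I3MO (-0.98 ± 0.17, adjusted p = 0.00217). Against these, JUN of the AP-1 factor was at 3.36 and 3.53 FPKM in DMSO and 6.62 and 7.40 in I3MO (0.85 ± 0.18, adjusted p = 0.0076). The adjusted p of JUN was 0.0504 without the first DMSO library and 0.0631 without the second I3MO library.

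Of 17 NF-kB regulators and targets 3 fell and 1 rose, and 1 fell without the first DMSO library or without the second I3MO library. TRAF1, a signalling adaptor, moved from 1.79 and 1.61 FPKM to 1.03 and 1.07 (-0.40 ± 0.07, adjusted p = 0.00249), and NFKBIB, an inhibitor of NF-kB, from 7.70 and 8.36 to 12.6 and 12.7 (0.60 ± 0.12, adjusted p = 0.00511). Of 4 expressed genes of the aryl hydrocarbon receptor and its targets 1 rose, NQO1, given above with the NRF2 targets, and 2 fell. CYP1A1, a cytochrome that the aryl hydrocarbon receptor induces, was at 1.29 and 1.37 FPKM in DMSO and 0.791 and 0.751 in I3MO (-0.40 ± 0.08, adjusted p = 0.00348). CYP1A1 passed the rule only through DMSO. TIPARP, another target, was at 1.20 and 1.15 FPKM in DMSO and 0.891 and 1.02 in I3MO (-0.15 ± 0.13, adjusted p = 0.547). CYP1B1 and AHRR were below 0.5 FPKM in all 4 libraries, and ARNT, the partner of the receptor, fell from 2.16 and 2.19 FPKM to 1.19 and 1.22 (-0.53 ± 0.10, adjusted p = 0.00357). Of 8 expressed genes around GSK3 and beta-catenin 1 rose, the WNT antagonist NKD2, from 18.2 and 14.4 FPKM to 29.3 and 29.4 (0.82 ± 0.09, adjusted p = 7.76e-05), and 1 fell, CTNNB1 (-0.46 ± 0.12, adjusted p = 0.0225). The fall of CTNNB1 was lost when any 1 library was left out (adjusted p = 0.0773 to 0.139).

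Metabolic genes gave scattered calls. Over all expressed genes 10.3% were called higher and 13.2% lower. The metabolic, respiratory chain and ribosome lists given below were not tested against these shares. SREBF1, the factor that drives lipid synthesis, was at 31.8 and 31.0 FPKM in DMSO and 15.1 and 15.3 in I3MO (-0.997 ± 0.07, adjusted p = 2.03e-06), and it was the only fall among 24 genes of cholesterol synthesis. CYP51A1 and NSDHL rose, but both calls were lost without the second DMSO or the second I3MO library, and NSDHL's also without either of the others. Of 27 genes of glycolysis and hypoxia 5 rose and 5 fell, with a median of -0.15, and 4 of the 10, NDRG1 among them, had passed the rule through 1 group only. P4HA2, a collagen prolyl hydroxylase, moved from 1.12 and 1.16 FPKM to 2.17 and 2.26 (0.59 ± 0.06, adjusted p = 5.14e-05), and NDRG1, a stress-induced gene, from 1.65 and 1.45 to 0.328 and 0.336 (-0.94 ± 0.11, adjusted p = 0.000145). The rises numbered 2 without the second DMSO or the second I3MO library and 3 without either of the others. Of 12 fatty acid synthesis genes limma called 0, with 2 at an unadjusted p under 0.05 and 0 by limma-voom.

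SMOX, which oxidises spermine, was at 2.17 and 1.84 FPKM in DMSO and 5.39 and 5.60 in I3MO (1.11 ± 0.08, adjusted p = 2.93e-06). DDIT4, a brake on mTORC1, was at 12.6 ± 0.494 FPKM in DMSO and 28.8 ± 0.335 in I3MO (SD, n = 2 each), a change of 1.13 (SE 0.17, adjusted p = 0.000764). CASTOR2, listed as another brake on the same complex, was at 4.18 and 4.48 FPKM in DMSO and 1.83 and 1.42 in I3MO (-1.03 ± 0.20, adjusted p = 0.00398). The 2 brakes thus stood on opposite sides. Of 31 nuclear genes of the respiratory chain 4 fell, but 1 fell without the first DMSO library and 0 without any 1 of the others. Among 13 mitochondrially encoded genes limma called 0, with a median of -0.43, 3 lower at an unadjusted p under 0.05 and 0 by limma-voom. Of 29 ribosome biogenesis genes 3 rose and 1 fell. The fall, NOLC1, was lost without either DMSO library or the first I3MO library, and the rise of RRP9 without the second DMSO library or either I3MO library. Of 47 cytosolic ribosomal proteins 1, RPS21, rose (0.41 ± 0.12, adjusted p = 0.039), a call lost when any 1 library was left out (adjusted p = 0.078 to 0.248).

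By gene class, 4.65% of the 129 single-exon protein-coding genes were called higher and 22.5% lower, against 11.1% and 13.2% of the 7180 with more exons. Among the protein-coding genes with the longest span, 64.9 to 1225 kb, 6.43% were called higher and 15.5% lower. In the shortest of 5 equal groups by span, 0.207 to 8.80 kb, the shares were 13.4% and 13.5%. Of 318 lincRNA genes 6.92% were called higher and 19.2% lower, and of 339 processed pseudogenes 9.15% and 5.01%. On chromosome 9, 71 of 381 genes (18.6%) were called higher, beside 10.3% of all expressed genes. These shares describe the same fit and were not tested.

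The RPMI8226 response was set against the mean response of ARP1 and U266, which received the same dose and share no library with it. The difference passed for 1747 of the 8813 genes (19.8%), 834 more positive (9.46%) and 913 more negative (10.4%) in RPMI8226, against 7.07% and 8.91% of all tested genes. Median-ratio scaling between libraries moved the share of more positive calls from 47.7% to 65.0%. The calls numbered 1026 and 1004 without the first and second RPMI8226 DMSO library, 917 and 891 without the first and second I3MO library, and 1270 to 2147 without any 1 of the ARP1 or U266 libraries. Of the 1747 genes 863 were also called within RPMI8226 and 884 were not.

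DNA replication showed the broadest difference. On that list U266 had 39 falls, ARP1 24 falls and 3 rises, and RPMI8226 11 falls and 1 rise. At 5 µM ANBL6BR had 36 falls, and ANBL6 had 4 falls and 2 rises. Of the 39 genes 28 differed from the mean of ARP1 and U266, all toward higher values in RPMI8226, with a median difference of 0.75. The number was 19 without either RPMI8226 DMSO library and 18 and 17 without the first and second I3MO library, while median-ratio scaling gave 31. MYBL2, an activator of late S-phase genes, was at 83.0 and 83.4 FPKM in DMSO and 69.5 and 70.6 in I3MO in RPMI8226 (-0.25 ± 0.08, adjusted p = 0.0646). The change of MYBL2 was -1.08 in ARP1 and -2.30 in U266, a difference of 1.45 ± 0.10 (adjusted p = 5.72e-06). GINS2, of the replicative helicase, changed by -0.13 in RPMI8226, by -1.12 in ARP1 and by -2.04 in U266, a difference of 1.45 ± 0.13 (adjusted p = 3.24e-05). CDC25A, the phosphatase that activates CDK2, was at 11.01 and 10.7 FPKM in DMSO and 14.96 and 15.1 in I3MO in RPMI8226. Its change was 0.44 there, -0.50 in ARP1 and -1.54 in U266, a difference of 1.46 ± 0.14 (adjusted p = 4.6e-05). The rise of CDC25A within RPMI8226 was lost when any 1 library was left out (adjusted p = 0.0747 to 0.109).

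RRM2, a subunit of ribonucleotide reductase, changed by -0.57 in RPMI8226, -1.15 in ARP1 and -2.86 in U266, and the difference of 1.44 ± 0.34 (adjusted p = 0.0144) was lost without any 1 RPMI8226 library (adjusted p = 0.0511 to 0.0569). Of the 6 largest positive differences among called genes with a mean of at least 5 FPKM over the 12 libraries, 2 were processed pseudogenes, whose reads can come from their parent genes. HMGN2P3 differed by 1.98 ± 0.13 (adjusted p = 5.22e-06) and TMSB4XP8 by 1.58 ± 0.33 (adjusted p = 0.00753). MYG1-AS1, below that mean, differed by 2.02 (adjusted p = 0.00461). Mitosis genes, by contrast, gave 2 calls of a difference among 28, with a median of -0.10, and whether this share is below that of replication was not tested. The mean of ARP1 and U266 joined unlike responses on that list. U266 had 27 falls (median -0.87), ARP1 9 falls and 9 rises (median -0.03), and RPMI8226 lay between them with 14 falls (median -0.50).

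Of the 28 targets of ATF4 and CHOP, 18 of which rose in RPMI8226, 13 differed downward from the mean of ARP1 and U266 and 1 upward. The other 14 did not pass, and the median difference was -0.56. On the same list 23 rose in ARP1 and 26 in U266, and at 5 µM 15 rose in ANBL6 and 12 in ANBL6BR. INHBE, a secreted growth factor of the activin family named here after its values were seen, was at 5.13 and 5.01 FPKM in DMSO and 11.2 and 10.5 in I3MO. It rose by 0.96 in RPMI8226, 2.40 in ARP1 and 2.75 in U266, a difference of -1.61 ± 0.19 (adjusted p = 0.000206). PHGDH was the exception that differed upward, with 1.92 in RPMI8226, 0.36 in ARP1 and 1.45 in U266 (1.01 ± 0.17, adjusted p = 0.0026). ASS1, outside that list, rose less in RPMI8226 than in ARP1 at 2.22 and U266 at 2.37 (-0.84 ± 0.15, adjusted p = 0.00328).

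The 6 largest negative differences under the same mean of 5 FPKM were those of ERVV-2, SAT1, ERVV-1, SLC38A2, ZFP36L2 and PLEK. Below that mean C3AR1 (-2.23), CYBB (-2.10) and BBC3 (-1.90) were called as well. ERVV-2 differed by -2.35 ± 0.12 (adjusted p = 1.86e-06) and ERVV-1 by -2.11 ± 0.17 (adjusted p = 1.43e-05), with changes between -0.70 and 0.00 for both in ARP1 and U266. In ARP1 both genes were listed at 0 in all 4 libraries, and in U266 ERVV-1 was at 0.749 to 1.24 FPKM and ERVV-2 at 3.997 to 8.13, so in ARP1 no fall could be seen. SLC38A2, a neutral amino acid carrier that ATF4 induces, was at 5.91 and 5.63 FPKM in DMSO and 2.62 and 2.74 in I3MO in RPMI8226 (-0.88 ± 0.25, adjusted p = 0.0332). It changed by 1.87 in ARP1 and 0.04 in U266, a difference of -1.83 ± 0.31 (adjusted p = 0.00214). The fall within RPMI8226 was lost without any 1 library (adjusted p = 0.116 to 0.155), while the difference was not.

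ZFP36L2, which marks messengers for decay, was at 62.0 and 62.5 FPKM in DMSO and 36.7 and 38.6 in I3MO in RPMI8226, a change of -0.71 that did not pass. In ARP1 it changed by 1.89 and in U266 by 0.19, a difference of -1.75 ± 0.35 (adjusted p = 0.00653). SAT1, which acetylates polyamines for export, changed by -0.87 in RPMI8226, 0.00 in ARP1 and 2.82 in U266, a difference of -2.28 ± 0.44 (adjusted p = 0.00497). PLEK, a substrate of protein kinase C in blood cells, changed by -0.77 in RPMI8226, 0.91 in ARP1 and 0.99 in U266 (-1.72 ± 0.22, adjusted p = 0.00033). The change within RPMI8226 of PLEK (adjusted p = 0.0114) was lost without any 1 library (adjusted p = 0.0523 to 0.0711).

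**Figure D5:**
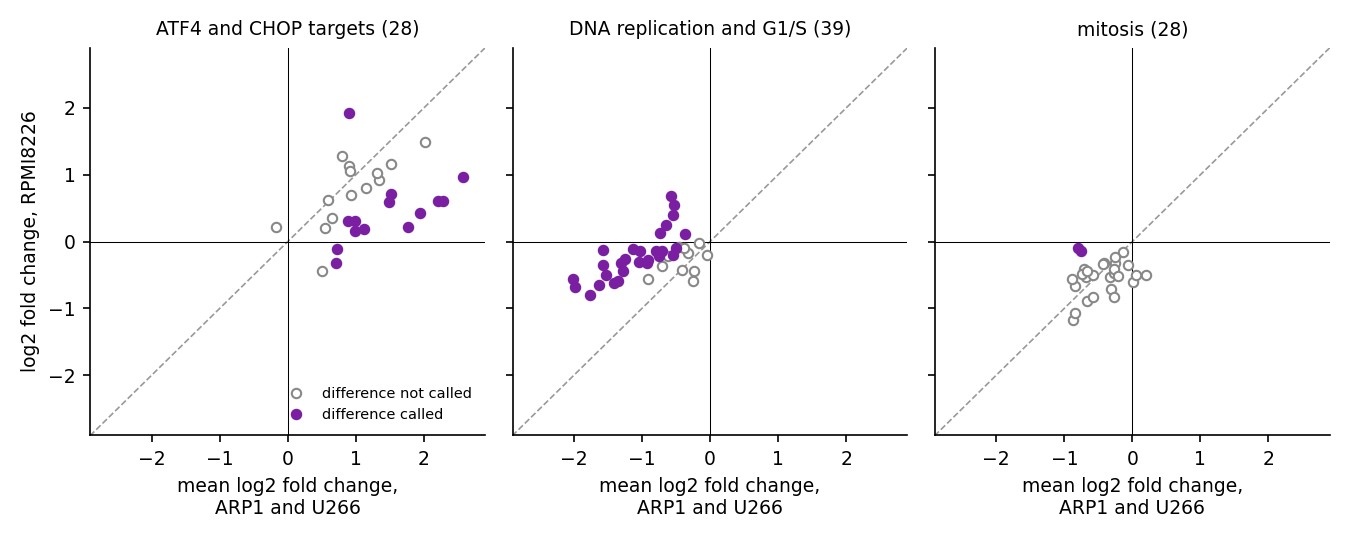
Log2 change in RPMI8226 cells (vertical axis) against the mean of the changes in ARP1 and U266 (horizontal axis), 1 point a gene, for the ATF4 and CHOP targets, the DNA replication genes and the mitosis genes, with called differences filled and a dashed line where both changes are equal. The 28 called replication genes lie above the line, 13 of the 14 called ATF4 and CHOP targets lie below it, and 2 mitosis genes are called.

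Other named genes that differed included several regulators. BBC3 fell further in RPMI8226 than in ARP1 at -0.33 and U266 at -0.59 (difference -1.90 ± 0.23, adjusted p = 0.000249). MAF fell further than in ARP1 at -0.05 and U266 at -0.43 (-1.27 ± 0.16, adjusted p = 0.000345). CYP1A1 changed by 0.76 in ARP1 and 0.01 in U266 (difference -0.78 ± 0.09, adjusted p = 0.000205). Of 15 heat shock genes 4 differed upward, and 1 or 2 did when any 1 RPMI8226 library was left out and 1 with the replicate block. DNAJB1 changed by -0.56 in ARP1 and 0.34 in U266 (difference 1.25 ± 0.29, adjusted p = 0.0128). JUN changed by -0.24 in ARP1 and -0.72 in U266 (difference 1.33 ± 0.22, adjusted p = 0.00221). Of 21 interferon-stimulated genes 5 differed upward and 2 downward, with a median of 0.14. MX1 changed by -0.53 in RPMI8226, 0.00 in ARP1 and -2.30 in U266 (difference 0.62 ± 0.08, adjusted p = 0.000401). STAT2, which fell in RPMI8226, changed by 0.08 in ARP1 and 0.05 in U266 (difference -0.78 ± 0.10, adjusted p = 0.000347). IFI16 changed by 0.53 in ARP1 and -0.08 in U266 (difference -0.85 ± 0.12, adjusted p = 0.000595).

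The same 8813 genes gave 3616 calls in ARP1 (41.0%), 2639 in U266 (29.9%), 2073 in ANBL6BR (23.5%) and 917 in ANBL6 (10.4%, of which 5.25% higher and 5.15% lower), the last 2 at 5 µM. Of the 2071 genes called in RPMI8226, 957 were also called in U266, 843 of them in the same direction and 114 in the opposite one. In ARP1 899 were also called, 726 in the same and 173 in the opposite direction. For ANBL6BR the numbers were 779, with 729 in the same direction, and for ANBL6 432, with 392 in the same direction. Across the 8813 genes, which are not independent replicates, the RPMI8226 change correlated with that of U266 at r = 0.40, of ANBL6BR at 0.40, of ANBL6 at 0.39 and of ARP1 at 0.21. HEXIM1 was lower in all 5 models, with changes of -0.77 in ARP1, -0.93 in U266, -0.88 in ANBL6 and -1.23 in ANBL6BR. CYBB, CXCL10 and KLK1 changed by less than 0.5 in either direction in the other 4 models, where most levels left little room for a fall. CYBB was at most 1.47 FPKM there and was called higher in ARP1 (0.45, adjusted p = 0.00898). CXCL10 was at most 1.34 FPKM outside ANBL6, where it was at 91.8 to 151 FPKM, and KLK1 at most 0.168 FPKM outside ANBL6, where it was at 2.97 to 3.63. KLK1 and CXCL10 differed from ARP1 and U266 in the main test (-1.58 ± 0.12, adjusted p = 8.57e-06, and -1.65 ± 0.22, adjusted p = 0.000429) but not with limma-voom on recovered fragments (adjusted p = 0.736 and 0.115).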

How the data were processed

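RNA sequencing of RPMI8226 cells was analysed in 4 libraries, 2 with DMSO and 2 with I3MO, within a joint table of 20 libraries. The values are the authors' deposited FPKM for 60483 genes, and the 20 single-library tables hold the same values. Trimmomatic (0.32 and 0.36), STAR and SAMtools with hg38 are named per the submitters' processing notes, whereas the counting tool and the annotation are not given in the sources used here. Gene symbols came from a separate gene name reference, with GENCODE 29 names where it had no entry. Positions came from GENCODE 29 and promoters from RefSeq on GRCh38.p14.

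Library totals were recovered from the FPKM steps of single-exon genes, and whole fragments for 15627 of 15687 tested genes, to within 0.05 fragments. FPKM are not counts, so limma 3.58.1 (R 4.3.3) was run on log2(FPKM + 1), with 1 mean per group over all 20 libraries, an intensity trend and Benjamini-Hochberg adjustment over genes with 1 FPKM or more in at least 2 libraries. The 10 groups shared 1 estimate of the spread. Calls required adjusted p-values below 0.05. The script was tested on simulated data.

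The named genes were the 12 largest rises and falls among called genes with a mean of at least 5 FPKM and separate groups, up to 4 called genes with the smallest p in each list, the 6 largest called differences from ARP1 and U266 each way with a mean of at least 5 FPKM over those 12 libraries, and a set list of regulators. Some of these genes and 1 list are not reported here. The members and lists were chosen with earlier results of these data known. Alternatives were a pseudocount of 0.1, no filter, median-ratio scaling, a replicate block, no trend, the 4 libraries alone, each library left out and, added after seeing the data, limma-voom on the recovered fragments. Replicate numbers were not shown to pair libraries.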

Additional observations from a re-analysis of the deposited data

Results flagged for a closer look

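For 12 genes the log2 response of RPMI8226 cells differed from the mean response of ARP1 and U266 in the limma test of the difference itself, and these are the 6 largest differences each way among called genes with a mean of at least 5 FPKM over the 12 libraries. Toward higher values in RPMI8226 the difference was 1.98 for HMGN2P3, 1.58 for TMSB4XP8, 1.46 for CDC25A, 1.45 for GINS2, 1.45 for MYBL2 and 1.44 for RRM2. Toward lower values it was -2.35 for ERVV-2, -2.28 for SAT1, -2.11 for ERVV-1, -1.83 for SLC38A2, -1.75 for ZFP36L2 and -1.72 for PLEK.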

How the results depend on the processing

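The count of 2071 called genes in RPMI8226 stayed within 1.5 times under every setting that kept the 4 RPMI8226 libraries: 1850 with a pseudocount of 0.1, 1577 with no filter, 2235 with median-ratio scaling, 2041 with no trend, 2930 with the 4 libraries alone and 1923 with limma-voom. It ranged from 1058 to 1287 when 1 RPMI8226 library was left out. The count of 1747 differences from ARP1 and U266 was 1431, 1211, 2082, 1722 and 1254 under the same settings except the 4 libraries alone, and ranged from 891 to 2147 when 1 of the 12 libraries was left out. A group left with 1 library was assumed to vary like the others. With a replicate block within each cell model, 1416 genes were called in RPMI8226 and 931 differences were called. The deviations of libraries with the same number correlated at -0.05, so the numbers were not shown to pair libraries.

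Of 141 named genes called in RPMI8226, 105 kept their call under every setting run, and of 32 called differences 19 did. HID1's difference from ARP1 and U266, 0.71, was -0.19 with a pseudocount of 0.1 (adjusted p = 0.804) and -0.92 with limma-voom (adjusted p = 0.165), and KLK1's difference, -1.58, was 0.50 with limma-voom (adjusted p = 0.736). The cause was not tested. Depth limits genes near 1 FPKM, and with 2 libraries a group the spread rests on all 20 libraries. A bulk library cannot tell fewer cells of a kind from less RNA per cell.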

Other observations

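Some groups of genes outside the lists were looked at after their values were seen, and are given as values (log2 change ± SE). The subunits of the phagocyte NADPH oxidase did not move together. CYBB was lower with I3MO (-1.89 ± 0.12), as was NCF1 (2.31 and 2.31 FPKM in DMSO, 0.403 and 0.502 in I3MO, -1.19 ± 0.08). NCF4 was at 12.1 and 11.3 FPKM in DMSO and 16.4 and 16.4 in I3MO (0.46 ± 0.08), and CYBA had overlapping groups. NCF1 passed the rule only through DMSO, and it has near copies, so its reads may be split. The complement receptor gene C3AR1 was at 11.3 and 12.4 FPKM in DMSO and 3.51 and 3.53 in I3MO (-1.51 ± 0.19). The cytidine deaminase APOBEC3B was at 48.2 and 54.4 FPKM in DMSO and 17.6 and 18.4 in I3MO (-1.46 ± 0.10), and APOBEC3C at 62.1 and 71.6 in DMSO and 30.4 and 30.5 in I3MO (-1.11 ± 0.12).

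Of 19 genes that assemble N-glycans in the ER, 9 were called higher and 1 lower, beside 10.3% and 13.2% of all expressed genes. The set was put together after its values were seen, so this count is no test. Some of the calls were near the threshold, such as ALG5 (limma adjusted p = 0.0495) and DDOST (0.0452). GMPPB, which makes GDP-mannose, was at 5.91 and 5.67 FPKM in DMSO and 15.1 and 15.4 in I3MO (1.26 ± 0.17). MOGS, the first glucosidase of the ER, was at 12.8 ± 1.14 FPKM in DMSO and 24.9 ± 0.371 in I3MO (SD, n = 2 each), a log2 change of 0.91, while ALG1 was at 14.7 and 14.7 in DMSO and 11.5 and 11.4 in I3MO (-0.34 ± 0.08).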
